A study of Mus musculus with 6 samples.

Results

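Transcripts of genes used as markers of leukocytes were followed in sorted mature medullary thymic epithelial cells of mice with and without Aire. The set was a fixed list of 41 gene symbols, of which 39 were found by exact symbol among the 15643 genes of the table. They comprised 19 T-lineage, 6 B-lineage, 11 myeloid and 3 pan-leukocyte genes. Xcr1 and Clec9a, both dendritic cell receptors, were not analysed here. The sorted fraction was mTEChi, with high MHC class II, from NOD mice, a strain that develops autoimmune diabetes, at 4.5 weeks of age. Libraries 745, 750 and 753 were labelled Aire+/+, and 746, 748 and 749 were labelled Aire-/- (3 each). MARS-seq tags transcripts at the 3' end with molecular barcodes (UMIs), which are counted. Neither the extent of the Aire deletion nor whether each number was 1 animal is stated, so the spread behind each p-value is that of these libraries only and may be technical.

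Medullary epithelial cells sit among large numbers of developing T cells, and the medulla also holds B cells, dendritic cells and macrophages that take up epithelial antigens and present them to thymocytes. Antigen receptors of T and B cells signal through small associated chains with immunoreceptor tyrosine-based activation motifs, the Cd3 chains and Cd247 in T cells and Cd79a and Cd79b in B cells. Myeloid cells use the related adaptors Fcer1g and Tyrobp for activating receptors that lack a signalling tail of their own. Such genes are widely used to see whether an epithelial sort holds RNA of other cells. In bulk libraries, fewer cells of a type and less RNA per cell cannot be told apart. Nor can RNA of leukocytes be told apart from transcripts of the same genes made by the epithelial cells themselves. The source of the transcripts was not tested.

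Depth lay between 1014581 UMIs (746) and 2887321 UMIs (753). Levels are CPM, UMIs scaled to a common library size with edgeR's TMM factors. Where a gene has no UMI, up to 3 UMIs (0.992 to 3.10 CPM, depending on the library) remain possible, and such floors and intervals cover counting error only. Transcripts assigned to Aire were at 2079 to 2467 CPM in the libraries labelled Aire+/+ and at 4499 to 5159 CPM in those labelled Aire-/-. A 3' tag outside the deleted part checks nothing, so all directions rest on the labels. Epithelial markers were present in every library, with Epcam, an epithelial adhesion molecule, at 257 to 321 CPM. Foxn1, the transcription factor of thymic epithelium, was at 214 to 339 CPM. The keratin Krt5 was at 690 CPM in 749 and at 1442 to 1733 CPM in the remaining libraries. Gapdh had 90 UMIs in 753 and 28 in 746, against 2245 to 4166 in the other 4.

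The leukocyte genes were called about as often as the rest of the table. Of 37 members that passed the count filter, 6 rose and 2 fell in the libraries labelled Aire-/- (edgeR, adjusted p up to 0.05), or 21.6%, against 20.7% of all 11956 genes tested. By direction, 16.2% rose against 8.59% of all genes, and 5.41% fell against 12.1%. For 12 of the 37 members (32.4%) all libraries of 1 genotype lay above all of the other, against 36.5% of all tested genes. The median log2 fold change of the 37 was 0.33, against -0.02 over all genes. The genes that rose were Tcf7 among T genes, Cd209a, Fcer1g, Batf3 and Cd68 among myeloid genes, and the pan-leukocyte gene Coro1a. Those that fell were Vpreb3 among B genes and Itgam among myeloid genes. Themis and Cd79a were in the table but below the filter and carry no test in this edgeR fit. The authors' deposited DESeq2 values for Aire+/+ over Aire-/- were -1.40 (adjusted p = 0.24) and 0.0086 (adjusted p = 0.998).

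**Figure D1:**
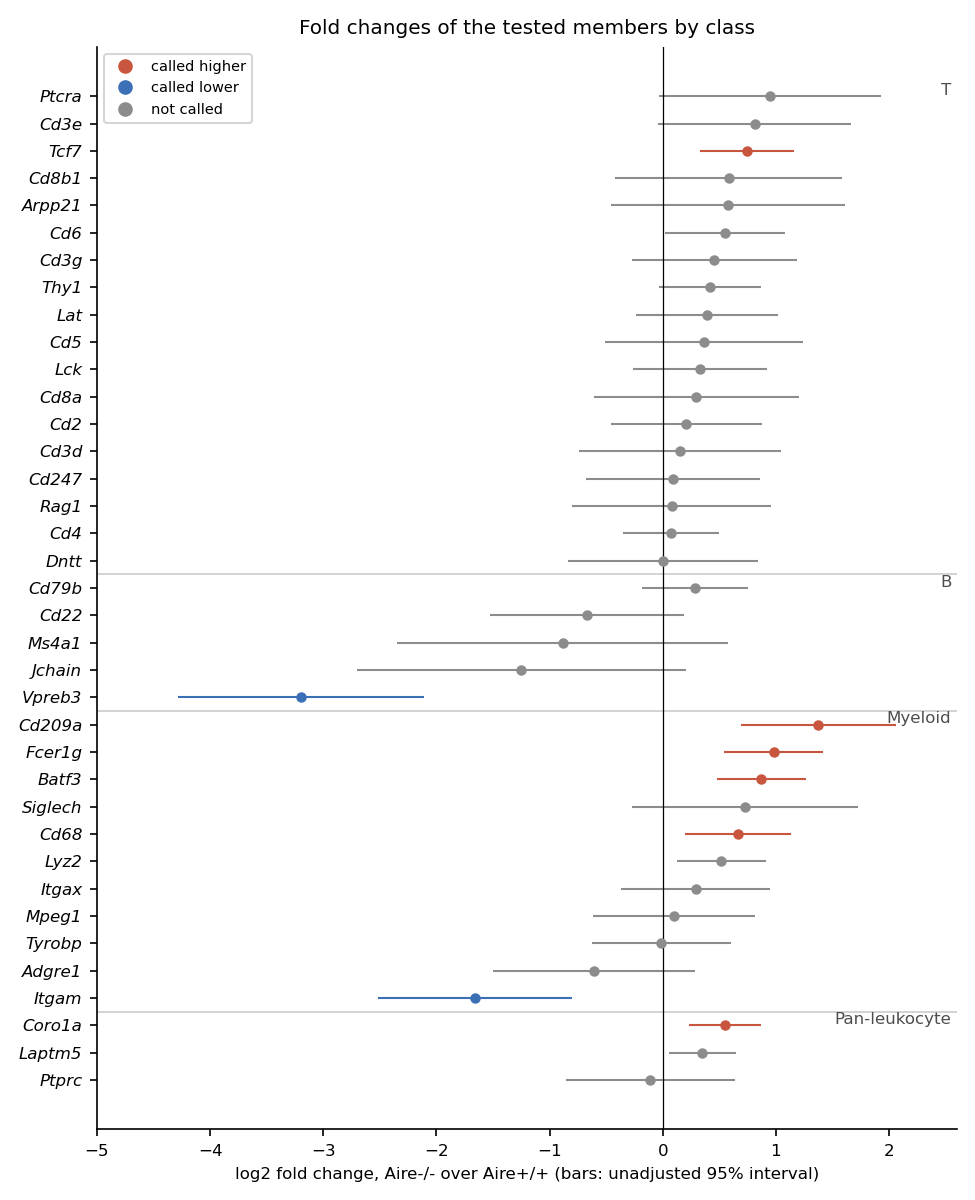
Log2 fold change (x axis) of Aire-/- over Aire+/+ for the 37 tested members by class (y axis), with unadjusted 95% intervals as bars, red for called higher, blue for called lower and grey for not called. The T genes sit together slightly right of 0 and only Tcf7 among them was called, while Vpreb3 at -3.19 and Itgam at -1.66 stand at the left of their classes.

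All 19 T-lineage genes had UMIs in all 6 libraries, and 1 of the 18 tested was called, against 20.7% of all tested genes. Their fitted fold changes were all above 0, with a median log2 value of 0.38. With library totals as the only scaling, which moved the median of all genes to -0.23, 12 of the 18 stayed above 0 and their median was 0.17. Without 750, 13 of 18 were above 0, and without 748, 13 of 19. No T gene fell by edgeR, at an unadjusted p under 0.05 or by DESeq2.

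The chains of the T-cell receptor complex varied as much within a genotype as between them. Cd3d, a signalling chain, was at 44.0, 16.6 and 28.4 CPM in the Aire+/+ libraries 745, 750 and 753 and at 8.28, 41.7 and 42.5 CPM in the Aire-/- libraries 746, 748 and 749. The 746 value rests on 8 UMIs, while its neighbour Cd3g had 21 UMIs there. The log2 fold change of Cd3d was 0.15, with a 95% interval of -0.74 to 1.04 (edgeR adjusted p = 0.843). Cd3g stood at 12.5 ± 4.77 against 17.5 ± 5.18 CPM (SD, n = 3 each, as for all means below) and Cd247, the zeta chain, at 12.3 ± 4.49 against 12.5 ± 5.07 CPM. Cd3e was lower in level, at 4.30, 2.66 and 5.42 CPM against 8.28, 5.42 and 8.63 CPM. These ranges only just did not overlap, and Cd3e was not called (log2 fold change 0.81, interval -0.04 to 1.66, edgeR adjusted p = 0.177). Ptcra, the pre-T-cell receptor alpha chain of early thymocytes, had a fitted value of 0.95 (edgeR adjusted p = 0.173) on 5 to 17 UMIs per library. Its last 300 nt, and those of Cd8b1, resemble 126 and 348 other genes, so their counts are uncertain.

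Coreceptors and surface molecules were not called either. Cd4 was at 69.8, 74.6 and 58.2 CPM in the Aire+/+ and 47.6, 87.8 and 72.7 CPM in the Aire-/- libraries, with a log2 fold change of 0.07 and an interval of -0.36 to 0.50. Cd8a and Cd8b1, the chains of the Cd8 coreceptor, were at 9.0 ± 5.05 against 10.7 ± 3.43 CPM and 12.2 ± 7.80 against 17.3 ± 9.45 CPM. Within a library the UMIs of Cd4 were 4.80 to 16 times those of Cd8a, and the highest ratio came from 750, where Cd8a had 14 UMIs. Cd8b1 varied with Cd8a, at 0.875 to 2 times its UMIs. Thy1, a surface glycoprotein of thymocytes, had the highest mean of the T genes in the Aire+/+ libraries, at 130, 70.3 and 82.6 CPM, and stood at 107, 130 and 138 CPM in the Aire-/- libraries (log2 fold change 0.42, edgeR adjusted p = 0.192). Library 745 overlapped the Aire-/- range, and without it Thy1 was called higher (0.71, edgeR adjusted p = 0.0204). Cd6, a scavenger-type receptor of T cells, did not overlap between genotypes (11.3 to 15.2 against 16.6 to 20.7 CPM) but was not called (edgeR adjusted p = 0.145). Cd2 and Cd5, further receptors of T cells, had fitted values of 0.21 and 0.36.

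Among signalling molecules and thymocyte stage genes Tcf7 alone was called. Lck, the kinase that starts receptor signalling, was at 34.2 ± 13.9 against 42.0 ± 11.3 CPM, and Lat, the membrane scaffold below it, at 33.9 ± 14.6 against 43.6 ± 13.0 CPM. Themis, needed for positive selection, had 2 to 16 UMIs per library. Rag1, the recombinase of double-positive thymocytes, stood at 10.1 ± 5.01 against 10.4 ± 3.75 CPM, and Dntt, which adds nucleotides at receptor junctions, at 22.3 ± 12.5 against 21.9 ± 4.15 CPM. Both had a fitted value within 0.08 of 0, with intervals of -0.80 to 0.96 for Rag1 and -0.84 to 0.85 for Dntt. Changes in either direction within these bounds thus remain compatible with the data. Arpp21, abundant in immature thymocytes, had 7 to 24 UMIs per library.

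Tcf7, the transcription factor TCF-1 of T-cell commitment, was at 62.5, 57.6 and 49.1 CPM in the Aire+/+ libraries and at 81.8, 124 and 75.8 CPM in the Aire-/- libraries. Every Aire-/- library lay above every Aire+/+ library, and 748 was highest. In the edgeR fit it rose by 0.75 on the log2 scale, with a standard error of 0.19 and an adjusted p of 0.0142. The call was lost without 748 (0.48, edgeR adjusted p = 0.0912), without 753 (0.65, 0.0805), with library totals only (0.54, 0.0770) and with 753 and 746 both left out (0.73, 0.0545). Tcf7 UMIs were 11.9%, 20.2% and 14.0% of the summed UMIs of the 18 other T genes in 745, 750 and 753, and 22.7%, 21.8% and 15.6% in 746, 748 and 749, so the genotypes overlapped on that scale. Tcf7 (chromosome 11, positions 52252371 to 52283014, mm10, minus strand) is overlapped on its own strand by Gm26551, which covers its 3' end and was not analysed here.

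**Figure D2:**
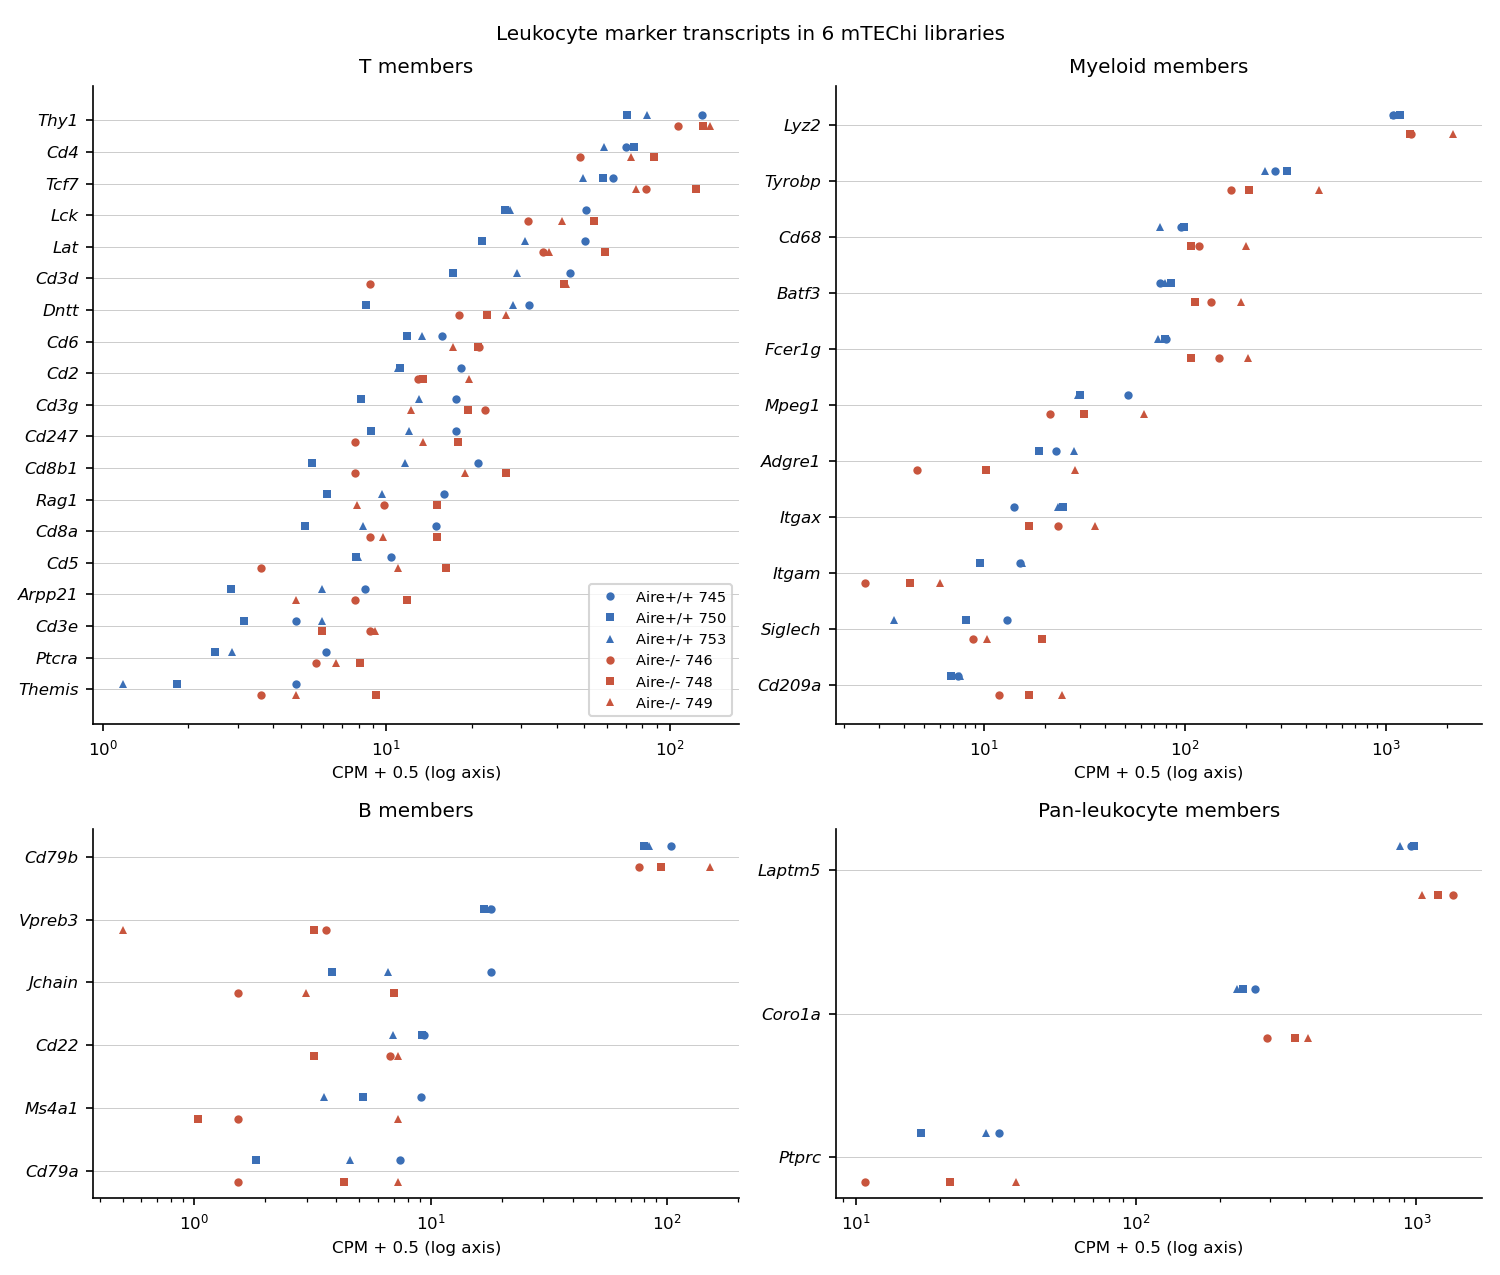
CPM plus 0.5 (x axis, log scale) of each of the 39 members (y axis) in each library, blue for Aire+/+ and red for Aire-/-, with 1 symbol per library number. Most T genes show 745 as the highest blue point and 750 as the lowest, and most myeloid genes show 749 as the highest red point.

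B-lineage genes gave 1 large decrease and no other call. Of the 6 genes 5 were tested, and 1 fell and 0 rose by edgeR, against 12.1% and 8.59% of all tested genes. At an unadjusted p under 0.05 or by DESeq2, 0 rose. Vpreb3, a chaperone-like protein that binds immunoglobulin chains in B-cell precursors, had 53, 49 and 51 UMIs in the group labelled Aire+/+, against 3, 5 and 0 in the other. The former were nearly equal at 17.5, 16.3 and 17.3 CPM, and the latter stood at 3.10, 2.71 and 0 CPM, without overlap. It fell by 3.19 on the log2 scale with a standard error of 0.50, or 9.15-fold (adjusted p = 0.00052 by edgeR). The authors' deposited table gives 3.22 for Aire+/+ over Aire-/- and selects the gene. By a rule not examined here, that table selects 3 members, Vpreb3, Cd209a and Itgam, of 9 with a DESeq2 adjusted p up to 0.05. The called members Fcer1g, Batf3, Coro1a, Tcf7 and Cd68 are not selected there. The decrease of Vpreb3 was called under all 12 other settings, at -3.79 to -2.55.

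The promoter of Vpreb3 from RefSeq (GRCm38.p6, chr10:75948050-75948349, plus strand, 250 bases before the start to 50 after it) is shown because this gene had the largest change of the set. RefSeq promoters were matched for 32 of the 41 genes, with 45 promoters in all. Capitals mark the E-box CANNTG, read alike on both strands, and the octamer ATTTGCAT, searched on both strands, an element known from immunoglobulin promoters.
Vpreb3: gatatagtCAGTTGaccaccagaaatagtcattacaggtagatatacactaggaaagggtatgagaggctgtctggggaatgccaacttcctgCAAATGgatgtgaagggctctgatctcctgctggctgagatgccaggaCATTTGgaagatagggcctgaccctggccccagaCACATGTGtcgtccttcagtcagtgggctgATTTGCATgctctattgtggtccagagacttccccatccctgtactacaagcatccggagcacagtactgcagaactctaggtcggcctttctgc
The window holds 5 E-boxes and 1 octamer. The octamer overlaps no E-box, and 1 pair of E-boxes overlaps and is printed as 1 run of capitals. The octamer was in 1 of the 45 member promoters, that of Vpreb3, and in 1.7% of all 32851 promoters of this length. E-boxes were in 97.8% of member promoters and 72.3% of all. Some genes, Arpp21 most of all, have several and partly overlapping promoters among the 45, so these shares count promoters and not genes. A match describes the letters only.

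The other B genes were low or not called. Ms4a1, the surface protein CD20, had 26, 14 and 9 UMIs against 1, 1 and 11. In 746 and 748 that is below every Aire+/+ library, but 749 lay inside their range. The fitted value was -0.88 (edgeR adjusted p = 0.407), and without 749 it was -2.84 and called (0.0285). Jchain, which joins polymeric antibodies, had 53, 10 and 18 UMIs against 1, 12 and 4, so library 745 held most of it in the Aire+/+ group (edgeR adjusted p = 0.229). Cd22, an inhibitory receptor, was at 8.0 ± 1.37 against 5.23 ± 2.20 CPM (edgeR adjusted p = 0.276). The end of its transcript resembles 18 other genes, so its count is uncertain.

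The receptor chains Cd79a and Cd79b did not keep 1 ratio. Cd79a had 21, 4 and 12 UMIs in the Aire+/+ and 1, 7 and 11 in the Aire-/- libraries. Cd79b was far more abundant, at 103, 79.3 and 83.6 CPM against 75.5, 93.3 and 151 CPM (log2 fold change 0.28, edgeR adjusted p = 0.406). Its UMIs were 14.8 to 73.0 times those of Cd79a. Each transcript gives 1 tag at its 3' end, so these counts need no division by length, though capture may differ between genes. Cd79b made up so much of the class that the summed B level, 132 ± 26.4 against 124 ± 44.6 CPM with a ratio of 0.937 between genotypes, became 0.394 without it.

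Myeloid genes split into some that rose, some that fell and some that did not pass the test. All 11 were tested, 4 rose and 1 fell, where 8.59% of all tested genes rose and 12.1% fell. The median log2 fold change was 0.52. Library 749 was the highest Aire-/- library for 10 of the 11, so each call is given without it too. Of the 33 other myeloid genes in the table, 749 was the highest Aire-/- library for 25. C1qa, a complement gene of macrophages named after its values were seen, was at 1069 CPM there, against 349 to 550 CPM in the other 5 libraries. The part of this library difference in the myeloid results was not tested.

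Among dendritic cell genes Batf3 and Cd209a rose. Batf3, a transcription factor of cross-presenting dendritic cells, was at 74.1, 84.2 and 78.5 CPM in 745, 750 and 753, against 133.5, 111 and 189 CPM in 746, 748 and 749. The groups did not overlap, and Batf3 rose by 0.87 on the log2 scale (standard error 0.18, adjusted p = 0.00386 by edgeR). Without 749 it was 0.62 (0.00729). Cd209a, a C-type lectin of monocyte-related dendritic cells, had 6.94, 6.33 and 7.11 CPM against 11.4, 16.3 and 24.0 CPM, again without overlap. Its log2 increase was 1.38 (standard error 0.31, adjusted p = 0.00684 by edgeR), or 1.07 without 749 (0.0318), and the authors' deposited table selects it with -1.38 for Aire+/+ over Aire-/-. Itgax, the integrin alpha X chain of dendritic cells, did not follow, at 13.6, 24.3 and 22.7 against 22.8, 16.3 and 35.1 CPM (log2 fold change 0.29, interval -0.36 to 0.95). Batf3 UMIs were 3.46 to 5.46 times those of Itgax in the Aire+/+ libraries and 5.37 to 6.83 times in the Aire-/- libraries. Siglech, a lectin of plasmacytoid dendritic cells whose 3' end resembles 7 other genes, had 8 to 38 UMIs per library by symbol and was not called (edgeR adjusted p = 0.311).

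The adaptors Fcer1g and Tyrobp parted. Fcer1g, the common gamma chain of Fc receptors, was at 80, 79.3 and 73.1 CPM, against 146, 107 and 206 CPM in the libraries labelled Aire-/-. The groups did not overlap, and it rose by 0.98 on the log2 scale (standard error 0.20, adjusted p = 0.00347 by edgeR), and by 0.68 without 749 (0.00587). Tyrobp, the adaptor DAP12, was at 279, 321 and 249 CPM against 168, 207 and 462 CPM. It was below the Aire+/+ range in 746 and 748 and above it in 749, with a fitted value of -0.01 (edgeR adjusted p = 0.985). Without 749 Tyrobp was called lower (-0.58, edgeR adjusted p = 0.0123). Tyrobp UMIs were 3.40 to 4.05 times those of Fcer1g in the Aire+/+ libraries and 1.15 to 2.25 times in those labelled Aire-/-, ranges that did not overlap.

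Among genes of macrophages and lysosomes, Itgam fell and Cd68 rose. Itgam, the integrin alpha M chain of macrophages and granulocytes, had 44, 27 and 44 UMIs against 2, 7 and 9, or 14.5, 8.99 and 14.9 against 2.07, 3.80 and 5.55 CPM. Every Aire-/- library lay below every Aire+/+ library. The log2 value was -1.66 with a standard error of 0.40, or 3.15-fold lower (adjusted p = 0.009 by edgeR), and the authors' deposited table selects the gene with 1.68 for Aire+/+ over Aire-/-. Without 749 it was -1.99 (0.00622), and with 753 and 746 both left out it was -1.34 and no longer called (0.0826). Itgam (chromosome 7, positions 128062640 to 128118491, plus strand) shares 55809 bases, including its 3' end, with Gm49368 on the same strand, which was not analysed here. Adgre1, the macrophage marker F4/80, had 22.1, 18.3 and 27.4 against 4.14, 9.76 and 27.7 CPM. It was not called (-0.61, edgeR adjusted p = 0.345), but without 749 it was called lower (-1.55, 0.00489).

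Cd68, a lysosomal glycoprotein, was at 94.9, 98.2 and 74.8 CPM against 117, 107 and 199 CPM (log2 fold change 0.66, edgeR adjusted p = 0.0452). This call was lost under 6 of the 12 other settings and stood at 0.32 without 749 (0.177). Lyz2, lysozyme M, was the most abundant member, at 1078, 1174 and 1091 CPM against 1326, 1316 and 2138 CPM. The groups did not overlap, and the log2 fold change of 0.52 missed the threshold (interval 0.12 to 0.91, edgeR adjusted p = 0.0631; DESeq2 adjusted p = 0.0325). The last 300 nt of Lyz2 match Lyz1 at 96.6% identity over 296 nt, and Lyz1 fell by 0.96 on the log2 scale (edgeR adjusted p = 0.0125), so the count of either gene is uncertain. Mpeg1, a pore-forming protein of macrophages, was at 36.7 ± 12.9 against 37.9 ± 21.6 CPM. Relative to Itgam, Lyz2 UMIs were 73.3 to 131 times as many in the Aire+/+ libraries and 347 to 640.5 times as many in the Aire-/- libraries.

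Promoters of Itgam, which fell, and of Batf3, Fcer1g and Cd209a, which rose under all 12 other settings, are set side by side (RefSeq, GRCm38.p6, same window, E-boxes in capitals), since genes of 1 class moved in opposite directions.
Itgam: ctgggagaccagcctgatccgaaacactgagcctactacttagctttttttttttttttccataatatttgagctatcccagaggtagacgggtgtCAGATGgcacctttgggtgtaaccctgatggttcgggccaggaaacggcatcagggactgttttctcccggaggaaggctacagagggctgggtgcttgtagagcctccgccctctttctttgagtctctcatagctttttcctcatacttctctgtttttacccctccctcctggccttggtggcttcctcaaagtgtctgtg
Batf3: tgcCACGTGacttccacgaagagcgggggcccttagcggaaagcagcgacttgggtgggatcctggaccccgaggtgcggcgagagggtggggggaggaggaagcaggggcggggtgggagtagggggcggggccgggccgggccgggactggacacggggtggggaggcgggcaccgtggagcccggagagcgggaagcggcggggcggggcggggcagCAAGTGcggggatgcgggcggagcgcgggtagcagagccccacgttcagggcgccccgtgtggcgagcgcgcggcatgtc
Fcer1g: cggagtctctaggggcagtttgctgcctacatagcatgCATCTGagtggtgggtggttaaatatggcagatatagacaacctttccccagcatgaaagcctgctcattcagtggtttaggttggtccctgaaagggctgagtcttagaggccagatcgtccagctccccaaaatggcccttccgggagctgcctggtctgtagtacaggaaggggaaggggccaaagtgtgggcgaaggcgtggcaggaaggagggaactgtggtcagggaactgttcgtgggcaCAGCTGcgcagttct
Cd209a: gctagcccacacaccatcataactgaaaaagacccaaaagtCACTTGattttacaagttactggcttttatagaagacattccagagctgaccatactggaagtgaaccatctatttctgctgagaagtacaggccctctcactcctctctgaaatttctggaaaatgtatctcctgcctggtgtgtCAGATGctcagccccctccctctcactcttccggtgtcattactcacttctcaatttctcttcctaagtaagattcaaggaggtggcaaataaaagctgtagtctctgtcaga
Itgam (chr7:128062390-128062689, plus strand) holds 1 E-box and 6 CG dinucleotides. Batf3 (chr1:191098164-191098463, plus strand) holds 2 E-boxes and 34 CG dinucleotides, and Fcer1g (chr1:171234300-171234599, minus strand) 2 and 7. Cd209a (chr8:3748935-3749234, minus strand) holds 2 E-boxes and 1 CG dinucleotide, fewer CG than Itgam, so the genes that rose lie on both sides of the gene that fell. The octamer seen in Vpreb3 is in none of these windows. The median promoter in the table holds 7 CG dinucleotides, and the median member promoter 4.

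Of the pan-leukocyte genes, Coro1a rose and the others did not pass the test. Coro1a, an actin-binding protein of leukocytes, was at 265, 240 and 229 CPM against 292, 370 and 411 CPM, a log2 increase of 0.55 (standard error 0.15, adjusted p = 0.0166 by edgeR). The groups did not overlap, but the call was lost with library totals only (0.34, 0.110) and without 750, 753 or 748 (0.50 to 0.53, 0.0582 to 0.0885). Its 3' end overlaps that of Bola2 on the opposite strand by 26 bases, and Bola2 was not called (0.18, edgeR adjusted p = 0.369). Ptprc, the leukocyte common antigen, stood at 32.1, 16.6 and 28.8 CPM against 10.3, 21.1 and 37.0 CPM, with a fitted value of -0.11 and an interval of -0.86 to 0.64. Laptm5, a lysosomal membrane protein of haematopoietic cells, was at 956, 982 and 876 CPM against 1345, 1194 and 1048 CPM, without overlap (0.35, edgeR adjusted p = 0.0930), and was called without 749 (0.44, 0.0291). Laptm5 UMIs were 28.4 to 130 times those of Ptprc, and the highest ratio came from 746, where Ptprc had 10 UMIs.

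The classes took small and differing parts of each library. T genes made up 0.0649%, 0.0363% and 0.0409% of UMIs in 745, 750 and 753 and 0.0421%, 0.0651% and 0.0501% in 746, 748 and 749. The exact 95% Clopper-Pearson interval of 745 (0.0619% to 0.0680%) lay above those of 750 (0.0341% to 0.0386%) and 753 (0.0386% to 0.0433%), so libraries of 1 genotype differed by more than counting error. Library 745 was the highest Aire+/+ library for 17 of 19 T genes and all 6 B genes, and 750 was the lowest for 15 T genes. Among Aire-/- libraries 748 was highest for 12 T genes and 746 lowest for 13. Myeloid genes made up 0.171% to 0.196% of UMIs in 5 libraries and 0.299% in 749 (0.291% to 0.307%). Among the Aire-/- libraries, the one richest in T genes (748) was thus not the one richest in myeloid genes (749). Pan-leukocyte genes held 0.116% to 0.139% in the Aire+/+ and 0.133% to 0.157% in the Aire-/- libraries. At an equal depth of 1014581 UMIs, 37.9 to 39.0 of the 39 members were detected in a library with at least 1 UMI. With at least 5 UMIs, 6, 3.7 and 4.4 B genes remained in 745, 750 and 753 and 2, 2.1 and 3.5 in 746, 748 and 749. For T genes this was 14.35 to 17.95 against 17 to 18.55, and for myeloid genes 9.95 to 11 against 9 to 10.65.

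**Figure D3:**
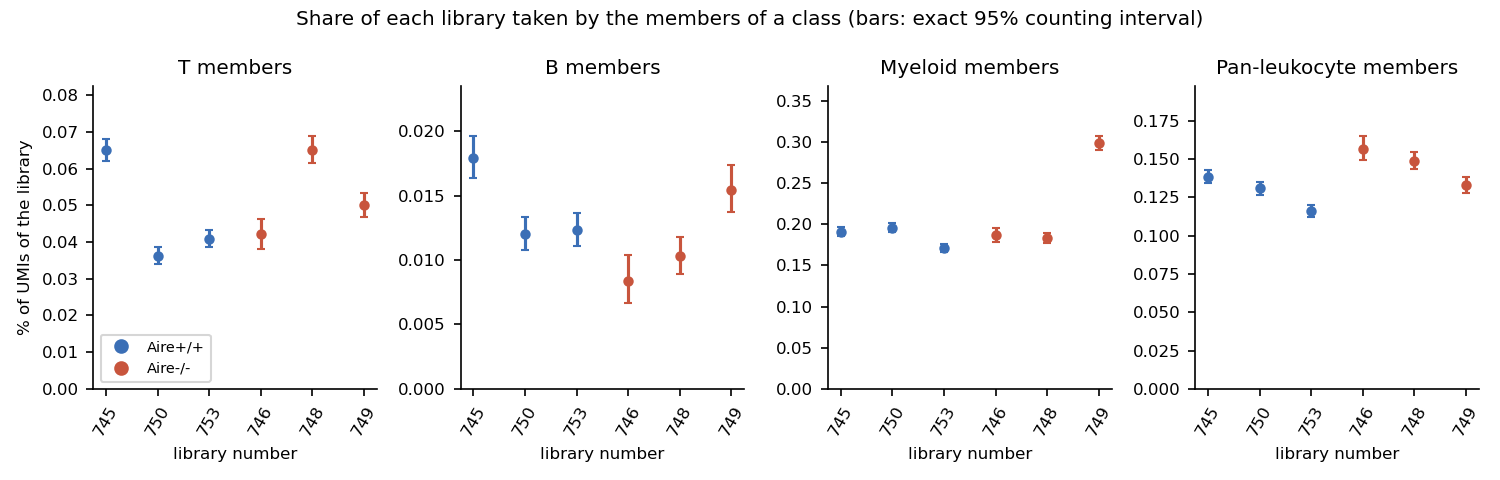
Share of all UMIs of a library (y axis, percent) held by the members of each class in the 6 libraries (x axis), blue for Aire+/+ and red for Aire-/-, with exact 95% counting intervals as bars. The T share is highest in 745 and 748, and the myeloid share is highest in 749 at 0.299%.

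Other genes of the same lineages, from lists chosen beside the members, gave the following counts. For comparison, 8.59% of all tested genes rose and 12.1% fell by edgeR. None of 9 other T genes tested was called by edgeR or DESeq2, and 1 had an unadjusted p under 0.05. A further 7 genes of this list were in the table but below the edgeR filter. Among these, Nkg7 had 13, 5 and 14 UMIs in the Aire+/+ and 1, 0 and 0 in the Aire-/- libraries. Ubash3a went the other way without overlap, at 1.98, 0.666 and 1.35 against 2.07, 2.71 and 4.31 CPM. DESeq2 called no gene of this list. Nkg7 and Ubash3a were named after their values were seen. Cd27, a costimulatory receptor, came nearest, with a fitted log2 value of 1.03 (adjusted p = 0.0624 by edgeR). Trac, Trbc1 and Trbc2, which encode constant parts of the T-cell receptor, were not analysed here. Of 12 other B genes tested 4 rose and 0 fell by edgeR, while DESeq2 called 2 higher and 0 lower, and 0 fell at an unadjusted p under 0.05. Cr2, complement receptor 2, had 31 UMIs in all in the Aire+/+ and 110 in the Aire-/- libraries and rose by 2.79 (edgeR adjusted p = 0.000121). Pax5, the B-lineage transcription factor, went from 3.89 ± 1.13 to 11.9 ± 2.31 CPM (1.58, 0.00563), and Igll1, a surrogate light chain, rose by 0.74 (0.0283). Genes of this other B list rose, while Vpreb3, of the member list, fell.

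Of 32 other myeloid genes tested, 6 fell and 2 rose, against 12.1% and 8.59% of all tested genes, and the median was 0.15. The strongest decreases were Marco, a scavenger receptor, at 320 UMIs in all against 5 (log2 fold change -4.91, edgeR adjusted p = 2.43e-06), S100a9 at 394 ± 83.6 against 22.7 ± 15.1 CPM (-4.01, 2.57e-06) and S100a8 at 483 ± 92.8 against 116 ± 38.9 CPM (-2.04, 2.97e-05). S100a8 and S100a9 encode the subunits of calprotectin, found in granulocytes and in some epithelia. Irf8, the partner of Batf3 in dendritic cells, rose from 206 ± 11.8 to 430 ± 23.5 CPM (1.06, edgeR adjusted p = 5.2e-05). Cybb was the other that rose (0.77, 0.00243). Of other listed genes found in dendritic cells, Flt3 (0.19), Zbtb46 (0.29), Ccr7 (0.25), Cd83 (0.12) and Clec10a (0.78) were not called. Bst2 fell (-0.70, edgeR adjusted p = 0.00142). Irf8 and these genes were named after their values were seen. Of 18 other pan-leukocyte genes 5 rose and 0 fell (DESeq2 4 and 0; 0 fell at an unadjusted p under 0.05). Among them Rac2, a GTPase of blood cells, rose by 1.39 (edgeR adjusted p = 0.00165), Ptpn6, a phosphatase of immune receptors, by 0.57 (0.00785), and Inpp5d, a lipid phosphatase, by 0.90 (0.0137).

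Lists for other cell types gave the following values, beside 8.59% of all tested genes that rose and 12.1% that fell by edgeR. Of 17 genes listed for medullary epithelium 8 rose and 0 fell (DESeq2 8 and 0; 0 fell at an unadjusted p under 0.05). Most of the 8 are also expressed by dendritic or B cells: H2-Aa, H2-Ab1, H2-Eb1 and Cd74 of the MHC class II pathway, the costimulatory ligand Cd80, and Ly75, an endocytic receptor. H2-Ab1 rose by 0.98, H2-Eb1 by 0.87 and Ly75 by 0.99. The others were the keratins Krt8 (0.82) and Krt18 (0.40). Epcam (0.01), Krt5 (-0.24) and Krt14 (-0.16) were not called (edgeR adjusted p = 0.974, 0.575 and 0.633). Krt5 and Krt14 were lowest in 749, at 690 and 593 CPM, against 1442 to 1733 and 942 to 1143 CPM in the remaining libraries. Genes of this list beyond the rule for named genes were named after their values were seen. Of 6 fibroblast genes 3 rose (Fbn1 by 1.04, Dcn by 2.07 and Col3a1 by 3.01), and the list summed to 117 to 153 CPM in the Aire+/+ libraries, 708 CPM in 746 and 250 to 269 CPM in 748 and 749. Plvap, of endothelial vesicles, was the 1 of 6 tested endothelial genes that fell (-2.06, edgeR adjusted p = 0.00252), and Tek (-0.71) and Egfl7 (-0.79) were not called. The endothelial list summed to 82.6 to 127 against 32.5 to 80.7 CPM. Below the filter, Tie1 had 18, 11 and 17 UMIs against 2, 2 and 1, while Cdh5, Emcn and Cldn5 overlapped between genotypes. Of 2 erythroid genes tested, the receptor Epor fell (-2.19, 0.0296), while the haem synthesis gene Alas2 had a fitted value of 0.50 and was not called (edgeR adjusted p = 0.182). The other 2 erythroid genes in the table were below the filter. Slc4a1 had 20, 12 and 18 UMIs against 0, 0 and 0, and Klf1 had 9, 8 and 9 against 0, 1 and 0. The untested genes of these lists were named after their values were seen. The part of the listed cell types in the leukocyte results was not tested.

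**Figure D4:**
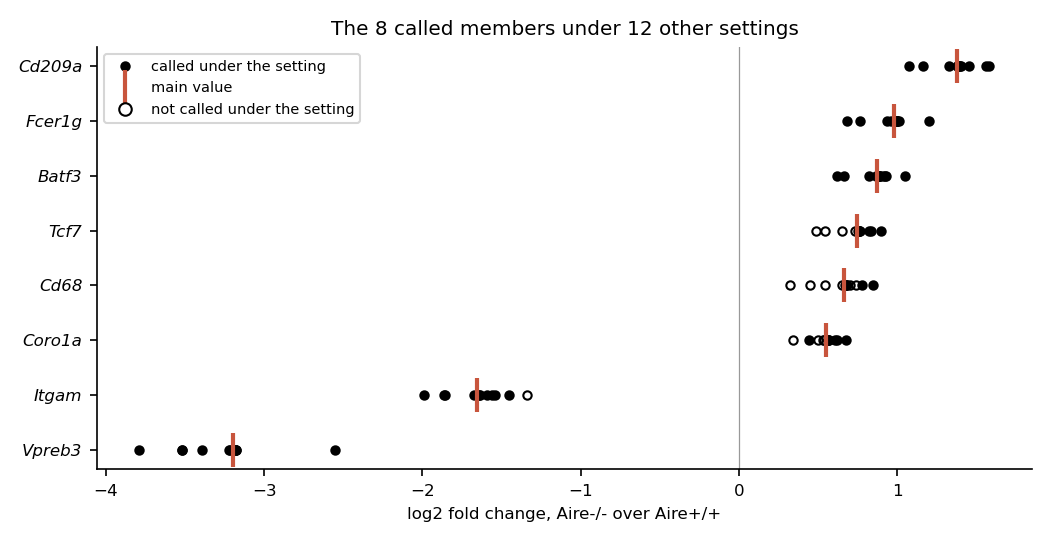
Log2 fold change (x axis) of the 8 called members (y axis) under the 12 other settings of scaling, test, filter and libraries, filled where the gene was called and open where it was not, with the main value as a red bar. Vpreb3, Batf3, Fcer1g and Cd209a were called under all 12, and all 8 genes kept their direction.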

How the data were processed

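The authors deposited raw UMI counts per gene symbol for 6 MARS-seq libraries, per the file headers. The same table holds normalized counts (a signal, per the file headers), regularized log2 values, and the authors' DESeq2 log2 fold changes and p-values, of which only the last 2 kinds are quoted. The submitters' processing notes name mm10, bcl2fastq, cutadapt, STAR 2.4.2a, HTSeq and DESeq2, without roles. Not given in the sources used here are the annotation, the strand setting and how UMIs were handled.

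The genotypes were compared over all genes with edgeR 4.0.16, run in R 4.3.3. The test was quasi-likelihood and two-sided, with TMM scaling and filterByExpr with min.count 10. Benjamini-Hochberg adjustment was over 11956 genes, with a threshold of 0.05. On simulated data the fit recovered 36% and 64% of genes with log2 changes of -1 and 1. With changes of -2 and 2 it recovered 80% and 100%, so smaller changes can be missed. The simulation gave all genes the same dispersion (spread between libraries beyond counting error). For members that varied more between libraries these shares may therefore be too high. Standard errors come from the F statistic. Alternatives included DESeq2 1.42.0. Positions and neighbours come from GENCODE M21 and 3' copies from blastn 2.17.0 (at least 80 nt and 90% identity). Thinning used 20 draws. Every member was described, and of each other list the 3 tested genes with the smallest p, except those named after their values were seen. Members and lists were chosen with earlier results of these data known. A planned search of the members' proteins for receptor signalling motifs was not run.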

Additional observations from a re-analysis of the deposited data

How the results depend on the processing

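No paired analysis was possible because the libraries of the genotypes share no number. All 8 called members kept their direction under the 12 other settings, and Vpreb3, Batf3, Fcer1g and Cd209a were called in each. The cause of the following differences was not tested. With library totals only, 0 T, 0 pan-leukocyte and 3 members in all were called higher, as were 6 other leukocyte genes (main 1, 1, 6 and 11), and the split over all genes moved from 58.6% to 78.8% lower. The summed pan-leukocyte ratio of 1.30 became 1.14 with library totals only, 1.41 without Laptm5 and 1.23 without 753 and 746. Leaving out 753 and 746 gave 0 T members higher, 0 myeloid members lower, 1 member in all lower, 6 other leukocyte genes higher and 1 gene of other cell types lower (main 2). That last count was 5 without a filter and 5 with min.count 3. The summed B ratio of 0.937 became 0.394 without Cd79b, in a sum that still holds Vpreb3. Over all genes, higher calls numbered 1027, and 561 to 1156 under the other settings.

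Leaving out 1 library at a time gave 0 to 2 T members higher, 1 to 2 B members lower, 1 to 3 myeloid members lower, 0 to 2 pan-leukocyte members higher, 2 to 5 members in all lower and 3 to 7 higher. Other leukocyte genes called higher ran from 6 to 12, and genes of other cell types called lower from 1 to 4. Without 753, 3 members in all rose and 6 other leukocyte genes did. Without 745, Thy1 joined Tcf7, and without 753 or 748 no T gene was called. Without 749, Ms4a1, Tyrobp and Adgre1 were called lower and Laptm5 higher, and Cd68 was not called. Without thinning 39.0 members were detected on average in the Aire+/+ libraries, against 38.7 at equal depth. The lowest depth, 1014581 UMIs in 746, limits genes such as Cd79a, with 1 UMI there.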
